A study of Mus musculus with 20 samples.

Results

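Striatal RNA from 13 male mice was compared between brothers of the same sire and dam, 6 given amphetamine and 7 given saline. These 13 were all the mice, of 20 sequenced, whose sire and dam labels were shared by at least 1 amphetamine and 1 saline mouse. They formed 6 families, 4 of the High-Active line (9 mice) and 2 of the Control line (4 mice). Each family held 1 amphetamine mouse and 1 saline mouse, except 273x375 (sire x dam), which held 2 saline mice. The line and the parents are therefore the same on both sides of every comparison within a family. Unrelated mice can share the line but not the parents.

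All 20 mice descended from an inter-cross of 8 inbred strains and were of generation 17. The High-Active line had been bred for distance travelled in the home cage and the Control line had been kept without selection. The mice were about 6.5 months old, received either saline or 0.25 mg/kg d-amphetamine sulfate by intraperitoneal injection, and were killed 2 hours later. The whole striatum of both hemispheres, dorsal and ventral together, was taken from each mouse as 1 library. The mice were outbred, so brothers share on average only part of their alleles. The labels give the same birth date to the brothers in 3 of the 6 families, 273x375 (for 1 of its 2 saline mice), 291x360 and 340x316. In 352x361, 356x331 and 327x292 the brothers were born 21, 41 and 66 days apart, so they were full brothers from different litters and not littermates. The study's methods describe each mouse as coming from a different family, whereas the labels repeat these sires and dams. The grouping used here rests on the labels.

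Amphetamine enters dopamine terminals through the dopamine transporter and releases the transmitter into the striatum. Dopamine then acts on projection neurons with the excitatory receptor Drd1, which raises cyclic AMP, and on those with the inhibitory receptor Drd2. In these neurons psychostimulants are known for inducing immediate early genes such as Fos and Egr1 and, later, peptide precursor genes such as Pdyn and Tac1. The values below were taken at a single low dose and a single time, and bulk tissue cannot tell fewer cells of a type from less RNA per cell.

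The libraries of the 13 mice held between 32388971 and 53710713 reads on genes, with a median of 38110985. Amphetamine and saline mice overlapped in depth, and between 15.97% and 17.39% of alignments fell on no gene. Levels are in CPM, the reads of a gene scaled to a common library size. Genes above 1 CPM in 3 or more of the 13 mice were kept, and these 14611 genes were tested. They are given as log2 CPM after normalisation by the trimmed mean of M values, and differences as log2 fold changes of amphetamine against saline from a model with family as a block. A gene was called at a Benjamini-Hochberg adjusted p under 0.1, the threshold of the study. The median standard error of a log2 fold change was 0.081 over all tested genes.

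The behaviour of the brothers after injection is the first readout of the drug. Amphetamine mice travelled 30.2 to 519 (in a unit that the labels do not name, n = 6) and saline mice 43.2 to 88.1 (n = 7). The ranges overlapped, and a single amphetamine mouse of family 356x331 lay far above all others. The mean was 155.5 ± 187 (SD) after amphetamine and 56.4 ± 16.4 after saline. The difference within families was 101.9, with p = 0.104 in a two-sided exact permutation test that exchanged treatment within families (96 arrangements, of which the smallest p is 0.0104) and an adjusted p of 0.156 over 3 measures. The amphetamine mouse travelled farther in 4 of 6 families, by 467 in 356x331, 120 in 273x375, 50.4 in 327x292 and 13.9 in 352x361. It travelled less far in the other two, by -30.8 in 291x360 and -15.2 in 340x316. Without family 356x331 the difference was 33.4.

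The amphetamine brothers had been the more active ones before the injection in most families. In the re-phenotyping of home cage distance before the injection, the amphetamine mouse exceeded its saline brother or brothers in 5 of 6 families. The difference was 0.417 km/day (exact permutation p = 0.0938, adjusted p = 0.156). In family 356x331 it was 2.03 km/day, and in the 5 others between -0.135 and 0.284 km/day. The mouse that ran farthest after amphetamine was therefore also the one that ran farthest before it. Body mass had no common direction, with the amphetamine brother heavier in 3 of 6 families and differences from -5 to 8.9 g.

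**Figure D1:**
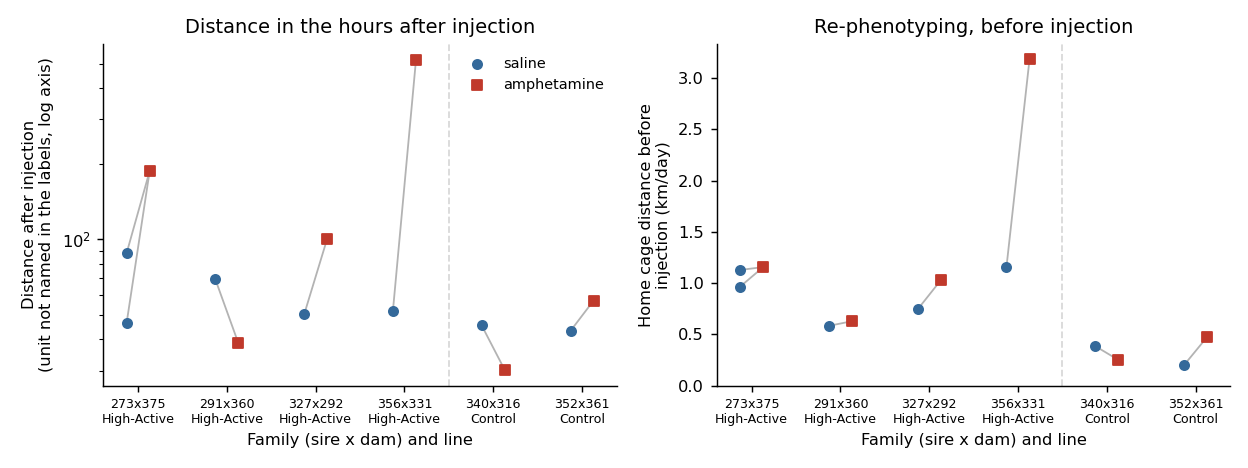
Distance travelled after injection (left, log axis, unit not named in the labels) and home cage distance in km/day before injection (right) for the 13 mice by family. Circles are saline mice, squares amphetamine mice and grey lines join brothers, with High-Active families left of the dashed line and Control families right. The amphetamine mouse of 356x331 stands highest in both panels, at 519 and 3.18 km/day.

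The composition of the dissected tissue was checked with marker genes before the drug comparison was read. Of the 19 striatal projection neuron markers, 18 were in the tables and all 18 were tested, and their summed level was 7244 to 11300 CPM in all 13 mice. The defining markers of the labelled tissue were thus present in every library. Markers of cortical excitatory neurons, which surround the striatum at dissection, ranged from 163 to 950 CPM in sum over the 10 genes. Their sum was higher in the amphetamine mouse of 4 of the 6 families, with a median log2 ratio of 1.04. In 273x375 it was 950 CPM after amphetamine and 163 and 196 CPM after saline, the largest contrast of the 6. It was 424 against 173 CPM in 291x360, 540.5 against 313 CPM in 356x331 and 809.5 against 319 CPM in 352x361. It was lower after amphetamine in 327x292 (218 against 340 CPM) and in 340x316 (612 against 831 CPM). Cortical RNA thus differed between brothers in the same direction as treatment in most families.

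All 10 cortical markers had a positive log2 fold change and 6 of them an unadjusted p under 0.05. None was called, the adjusted p being 0.78 for each of the 6. Slc17a7, the vesicular glutamate transporter of cortical neurons, differed by 1.17 ± 0.49 (SE), and the transcription factors Neurod6 and Neurod2 by 1.30 ± 0.54 and 1.23 ± 0.48. Emx1 and Cux2, regulators of cortical identity, differed by 1.28 ± 0.46 and 0.38 ± 0.12. The median of the 10 was 0.98, against -0.002 over all tested genes. Without the amphetamine mouse of 273x375 the median was 0.52 and no marker had p under 0.05, and without the amphetamine mouse of 352x361 it was 0.90 with 1 such marker. This list moves with treatment and is given beside the results that follow.

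Choroid plexus, which lines the neighbouring ventricle, varied more than any other marker list here. Its 10 markers, such as the water channel Aqp1 and the chloride channel protein Clic6, summed to 32.7 to 979 CPM after amphetamine and 29.2 to 906 CPM after saline. The log2 ratio between brothers ran from -4.09 to 4.33, higher after amphetamine in 3 of 6 families, and Kcne2 was at 0 in a mouse. Of the 10 markers, 0 had p under 0.05. Clic6 differed by -0.34 ± 0.18 and Aqp1 by -1.09 ± 1.06, and the median log2 fold change was -0.72. That median was 0.40 with a cortical marker score (the mean log2 CPM of the 10 cortical markers) as a covariate. It was 0.23 without the amphetamine mouse of 273x375, so its direction depended on these choices. Blood markers had a like spread, with sums of 16.8 to 360 CPM and 0 of 5 at p under 0.05, Alas2 at -1.13 and the globin gene Hba-a1 at -0.91.

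**Figure D2:**
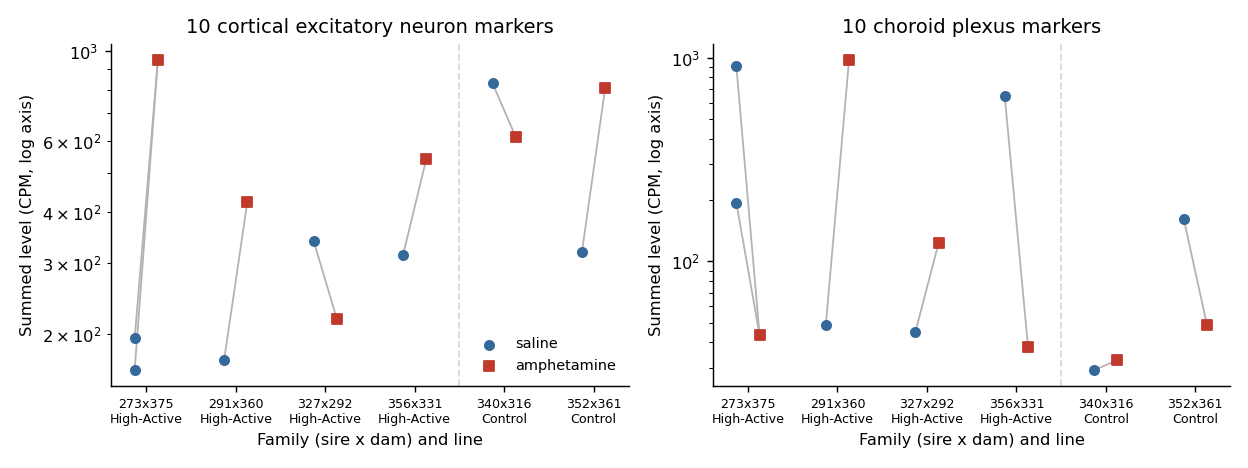
Summed level in CPM (log axes) of 10 cortical excitatory neuron markers (left) and 10 choroid plexus markers (right) in each of the 13 mice by family. Circles are saline mice, squares amphetamine mice and grey lines join brothers. The cortical sum is higher in the amphetamine mouse of 4 of 6 families and reaches 950 CPM in 273x375, and the choroid plexus sum differs between brothers in either direction.

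Glial and vascular markers differed little between brothers. Oligodendrocyte markers summed to 4866 to 7601 CPM after amphetamine and 4194 to 7424 CPM after saline, and the list median was 0.05. Opalin, a myelin membrane protein gene, was the only 1 of the 11 with p under 0.05 (-0.47 ± 0.15, lower in 5 of 6 families), and Mal, another myelin gene, differed by -0.11 ± 0.08. Astrocyte (4369 to 5036 CPM), microglia (398 to 485 CPM) and endothelial and pericyte markers (236.5 to 370 CPM) had 0 of 10, 0 of 10 and 0 of 11 members at p under 0.05. The members with the smallest p were Fgfr3 (0.15) and the glutamate transporter gene Slc1a2 (0.13) in astrocytes, Trem2 (-0.11) and the complement gene C1qa (-0.09) in microglia, and Ly6c1 (-0.13) and the receptor Tek (0.07) in vessels. The medians of the 3 lists were -0.04, 0.01 and 0.01. Of the 10 tested striatal interneuron markers, 3 had p under 0.05 and were higher after amphetamine, the peptide genes Cck and Vip and the serotonin receptor Htr3a. Cck and Vip are also made by cortical interneurons, and Cck by cortical pyramidal cells.

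Across the transcriptome no gene was called for amphetamine between brothers. Of 14611 genes, 0 (0%) reached an adjusted p under 0.1 by edgeR's quasi-likelihood test, and the smallest adjusted p was 0.78. An unadjusted p under 0.05 was found for 928 genes (6.35%), where 731 would be at that level if p-values were uniform. Of these, 568 (3.89% of all tested) were higher and 360 (2.46%) lower after amphetamine. By other tools on the same mice, limma-voom called 0 genes, DESeq2 called 16 (10 higher and 6 lower) and edgeR's likelihood-ratio test with robust dispersions called 17 (10 higher and 7 lower). With the cortical marker score as a covariate 522 genes had p under 0.05, and without family 273x375 there were 378. Leaving out the amphetamine mouse of 273x375 gave 479, and leaving out the Control pair of 352x361 gave 478 or 480 for either brother. The part of cortical RNA in the count was not tested beyond these values.

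Direction was the same in all 6 families for few genes. A higher level after amphetamine in every family was found for 209 genes (1.43%) and a lower level in every family for 221 (1.51%). The levels of the 6 amphetamine and 7 saline mice did not overlap at all for 14 genes (0.0958%). The 12 genes with the smallest p in each direction are described next. They were picked by that p, so their values describe the top of the ranking. In both sets 11 of 12 had the same direction in all 6 families, and all 24 had p under 0.05 also with the cortical covariate. DESeq2 called 6 of the 12 higher and 6 of the 12 lower genes.

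Pcdh9, a protocadherin of neuronal cell adhesion (chromosome 14, 93013410 to 93890679, GRCm38), had the smallest p among the higher genes. Its level was 5.81, 5.99 and 6.23 log2 CPM (lowest, median, highest) after amphetamine and 5.44, 5.76 and 5.82 after saline. Only the amphetamine mouse of 327x292 lay below the highest saline mouse, and it lay above its own brother. The log2 fold change was 0.29 ± 0.05 (SE), a difference of 22.2%, with an adjusted p of 0.78. By family it ran from 0.15 in 291x360 to 0.41 in 352x361. In the 3 pairs born on the same date alone it was 0.19.

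Chrm3, which encodes a Gq-coupled muscarinic acetylcholine receptor, was at 3.64, 3.96 and 4.21 log2 CPM after amphetamine and at 3.20, 3.35 and 3.93 after saline. The difference was 0.46 ± 0.10, from 0.05 in 340x316 to 0.77 in 273x375. With the cortical covariate it was 0.295. Kif5a, the neuronal kinesin heavy chain of axonal transport, was far more abundant, with a lowest level of 11.26 and a median of 11.32 log2 CPM after amphetamine and with 10.93, 11.06 and 11.29 after saline. Its difference was 0.24 ± 0.06 and it was higher in all 6 families, by 0.02 in 340x316 and by 0.15 to 0.33 in the others. With the cortical covariate the difference was 0.17.

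Of the other genes in the higher set, Grrp1 is given last. Pde4d, a phosphodiesterase that breaks down cyclic AMP, differed by 0.22 ± 0.05. Ppm1l, a protein phosphatase, differed by 0.30 ± 0.07, and Ptpn4, a tyrosine phosphatase, by 0.27 ± 0.06. Prkaa2, a catalytic subunit of the energy sensor AMP-activated kinase, differed by 0.22 ± 0.05 and Rassf5, a Ras effector, by 0.29 ± 0.07. All 5 were higher in all 6 families, with levels of amphetamine and saline mice that overlapped. Il1rap, the co-receptor of interleukin 1, differed by 0.19 ± 0.045, also in all 6. The homeobox factor Mkx was higher in all 6 families, by 0.12 to 1.14 (0.54 ± 0.12). Scrt1, a neuronal zinc finger repressor, was higher in 5 (0.25 ± 0.06), with -0.04 in 340x316.

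Grrp1 was the single gene of the 24 whose groups did not overlap. It was at 0.73, 1.14 and 1.43 log2 CPM after amphetamine and at 0.03, 0.39 and 0.71 after saline, which is close to the filter. The difference was 0.72 ± 0.16, by family 0.73 to 1.16 in the 4 High-Active and 0.34 and 0.08 in the 2 Control families.

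Among the lower genes Glt8d1, a glycosyltransferase family member (chromosome 14, 31001400 to 31011991), had the smallest p of all 14611 genes (adjusted p = 0.78). Its level was 4.45, 4.68 and 5.16 log2 CPM after amphetamine and 4.66, 4.84 and 5.38 after saline. The groups overlapped, while the amphetamine mouse was lower in each family. It was -0.24, -0.20, -0.21 and -0.19 in the High-Active families 273x375, 291x360, 327x292 and 356x331, and -0.22 and -0.40 in the Control families 340x316 and 352x361. The model gave -0.24 ± 0.04, and -0.23 in the 3 pairs born on the same date.

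Cartpt encodes the precursor of the CART peptides, which were named for their regulation by cocaine and amphetamine. It lies on chromosome 13 (99898489 to 99901091). Its level was 2.69, 3.62 and 3.89 log2 CPM after amphetamine and 3.77, 4.15 and 4.24 after saline. Only the amphetamine mouse of 273x375 and that of 340x316 lay within the saline range. The difference was -0.52 ± 0.09, a change of -30.1% in level, with an adjusted p of 0.78. It was negative in all 6 families, -1.07 in 352x361 and -0.29 to -0.50 in the others. With the cortical covariate it was -0.52, and DESeq2 called the gene (adjusted p = 0.00659).

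Rreb1, a zinc finger factor of Ras signalling, was at 5.40, 5.76 and 6.36 log2 CPM after amphetamine and at 5.89, 6.22 and 6.44 after saline. It differed by -0.44 ± 0.10, with -0.77 in 340x316, -0.79 in 273x375 and -0.08 in 291x360. The non-coding transcripts Sox1ot and 3110039I08Rik differed by -0.61 ± 0.11 and -0.31 ± 0.06. Sox1ot overlaps Sox1 and the strand setting of the counting is not given in the sources used here, so reads of the pair may be shared.

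The rest of the lower set held genes of low level or small difference. Stk38, a serine and threonine kinase, differed by -0.19 ± 0.05, Fam210b by -0.23 ± 0.05 and the metalloprotease Adam12 by -0.42 ± 0.09. Prok2, which encodes the secreted peptide prokineticin, was at or under 0.78 log2 CPM in every mouse. It differed by -2.01, -2.20 and -2.24 in 273x375, 291x360 and 352x361, by -1.41 in 356x331 and by -0.24 and -0.02 in 327x292 and 340x316. With the cortical covariate its difference was -0.78 in place of -1.46. The exchange factor gene Arhgef33 (-0.58) and the mitotic kinesin Kif15 (-0.84) also lay near the filter, and Kif15 was the only 1 of the 12 with a family of the opposite direction.

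**Figure D3:**
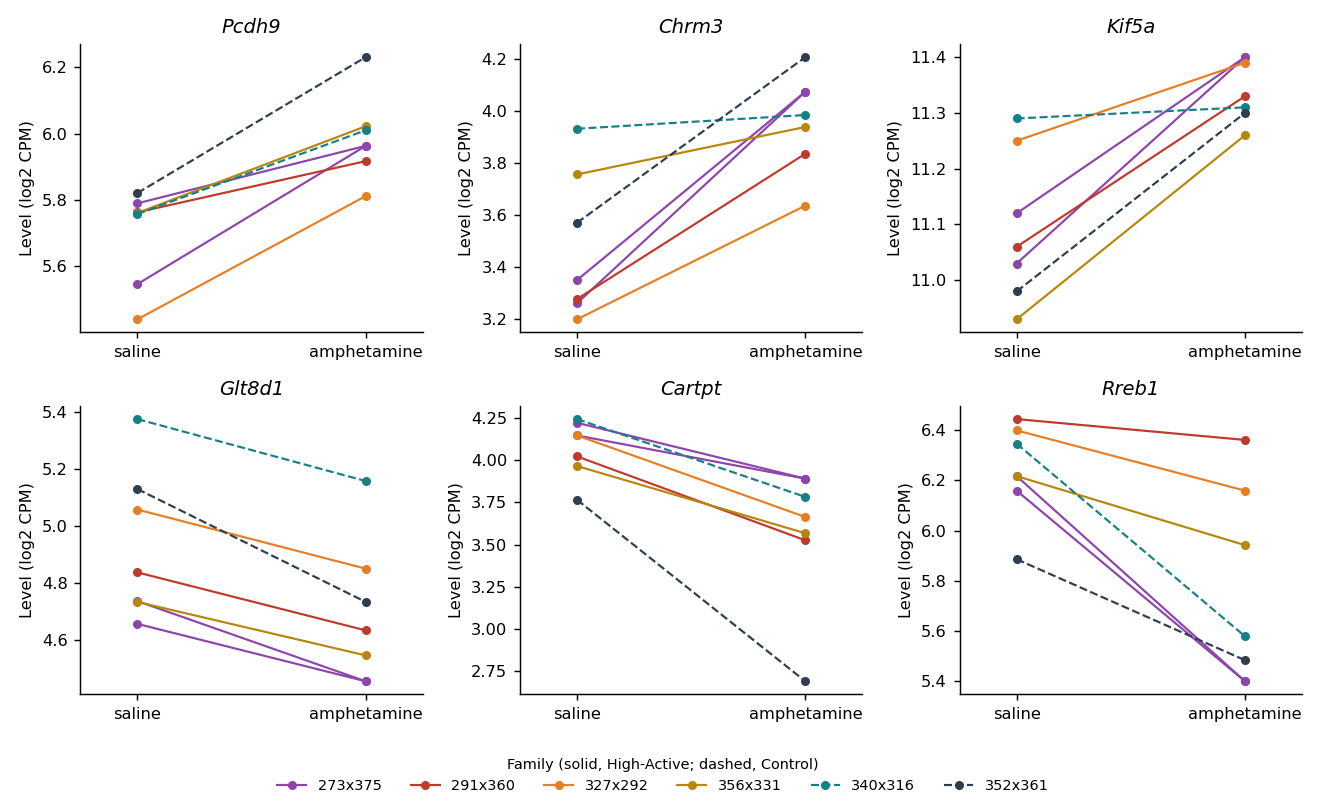
Level in log2 CPM of 6 genes among the 24 with the smallest p, in saline mice (left of each panel) and amphetamine mice (right). Lines join brothers, solid for the 4 High-Active and dashed for the 2 Control families, and 273x375 has 2 lines because it has 2 saline mice. The lines of Pcdh9, Chrm3 and Kif5a run upward and those of Glt8d1, Cartpt and Rreb1 downward in all 6 families, while the groups overlap in each panel.

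Immediate early genes showed no common direction between brothers 2 hours after the injection. Of 18 transcription factors in the list, 17 were tested, 5 had a positive and 12 a negative log2 fold change, and the median was -0.11. Fos was at 2.87, 3.48 and 4.26 log2 CPM after amphetamine and 3.02, 3.58 and 4.96 after saline. The highest Fos level of the 13 mice belonged to a saline mouse of 273x375. Its difference was -0.07 ± 0.25, with a 95% interval from -0.64 to 0.49. Egr1 differed by -0.12 ± 0.22, with brothers from -0.75 in 291x360 to 0.65 in 356x331, and Nr4a1 by -0.23 ± 0.28, from -1.06 in 340x316 to 0.61 in 356x331. Egr2 differed by -0.44 ± 0.37.

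Nr4a2, a nuclear receptor also expressed in deep cortical layers, was the only 1 of the 17 with p under 0.05 (1.04 ± 0.45). Its brothers differed by 1.64 to 1.93 in the 4 families where the cortical sum was higher after amphetamine and by -1.38 and -0.33 in the other two. With the cortical covariate its difference was 0.07. Of 13 effectors, Bdnf, a neurotrophin carried into the striatum from cortex, was the only 1 with p under 0.05 (0.80 ± 0.29, and 0.12 with the covariate). Its brothers differed by 0.41 to 1.64 in the 4 families with more cortical RNA after amphetamine and by -0.08 and -0.54 in the other two. Arc, a regulator of synaptic receptors, differed by 0.04 ± 0.31 and Ier2 by 0.41 ± 0.22. The MAPK phosphatases and Sprouty genes, feedback inhibitors of the same kinases, had 0 of 10 members at p under 0.05, with Spry4 at 0.15 and Spred2 at 0.11.

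None of the genes of dopamine signalling passed the test between brothers. In the list of dopamine receptors and cyclic AMP signalling 14 of 15 were tested, 0 had p under 0.05, 12 of 14 were negative and the median was -0.08. The median was 0.02 in the Control families alone and 0.10 in the 6 unrelated Control mice described below, where 12 of 14 were positive. Drd1 differed by -0.13 ± 0.16 and Drd2 by -0.08 ± 0.14. For Drd1 the brothers of 356x331 differed by 0.67 and those of 291x360 and 327x292 by -0.61 and -0.62, so the families disagreed in sign. Drd3, the receptor of the ventral striatum, differed by -0.60 ± 0.29 and Rgs2, a regulator of G protein signalling, by -0.21 ± 0.12. Of the striatal projection neuron list 17 of 18 were negative, with a median of -0.09 and 1 at p under 0.05, the transcription factor Isl1 (-0.38 ± 0.16, and -0.05 with the cortical covariate). This list too had a median of 0.02 in the Control families and 0.10 in the unrelated mice, where 15 of 18 were positive.

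Among the 7 genes of dopamine synthesis, transport and breakdown 5 passed the filter. Slc18a2, the vesicular monoamine transporter, whose mRNA is made in the cell bodies of monoamine neurons, was the only 1 with p under 0.05 (-1.09 ± 0.42). Its brothers differed by -2.34, -2.02, -1.76 and -0.99 in 356x331, 273x375, 352x361 and 327x292 and by 0.31 and 0.54 in 291x360 and 340x316. With the cortical covariate 0 of the 5 genes had p under 0.05. The same held without the amphetamine mouse of 273x375 and without that of 352x361. Maob, which breaks down dopamine, differed by 0.15 ± 0.11.

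The neuropeptide precursors behaved unlike one another. Penk, the enkephalin precursor of Drd2 neurons, differed by -0.18 ± 0.15, and Pdyn and Tac1, the dynorphin and substance P precursors of Drd1 neurons, by -0.29 ± 0.16 and -0.26 ± 0.14. Of the 9 genes, Cartpt and Nts, the neurotensin precursor (-0.50 ± 0.22), were lower and Cck (1.03 ± 0.39) higher at p under 0.05. Cck was at 5.02, 5.92 and 6.85 log2 CPM after amphetamine and 4.23, 4.97 and 6.43 after saline, and was higher in the same 4 families as the cortical sum. With the cortical covariate the Cck difference was 0.08.

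The remaining lists described stress, time of day and RNA source. Of 15 glucocorticoid response genes 0 had p under 0.05, 11 were positive and the median was 0.09. Zbtb16 (0.37 ± 0.17) and Plin4 (0.36 ± 0.17) had the smallest p, and the chaperone Fkbp5, a widely used readout of the hormone, differed by -0.05 ± 0.06. Of 16 clock genes, Bhlhe40 was the only 1 with p under 0.05 (0.20 ± 0.08), Hlf differed by 0.17 and Per1 by -0.03 ± 0.13. With the cortical covariate 0 of the 16 had p under 0.05. Of 15 heat shock and chaperone genes, 14 were negative (median -0.06) and Hspe1, a mitochondrial chaperonin, was the only 1 with p under 0.05 (-0.14 ± 0.05), while Hspa1a differed by -0.30 ± 0.21. With the cortical covariate 0 of these 15 had p under 0.05, and their median was 0.03. The 12 tested genes of the mitochondrial genome had a median of -0.02 and 0 at p under 0.05, with mt-Co3 at -0.08 and mt-Co2 at -0.07. Glo1, a detoxifying enzyme that the study names for a response differing between lines, differed by -0.03 ± 0.19. The Glo1 difference was 1.06 in 352x361, -0.63 in 291x360 and -0.59 in 356x331, with values between -0.10 and 0.17 in the other 3 families.

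**Figure D4:**
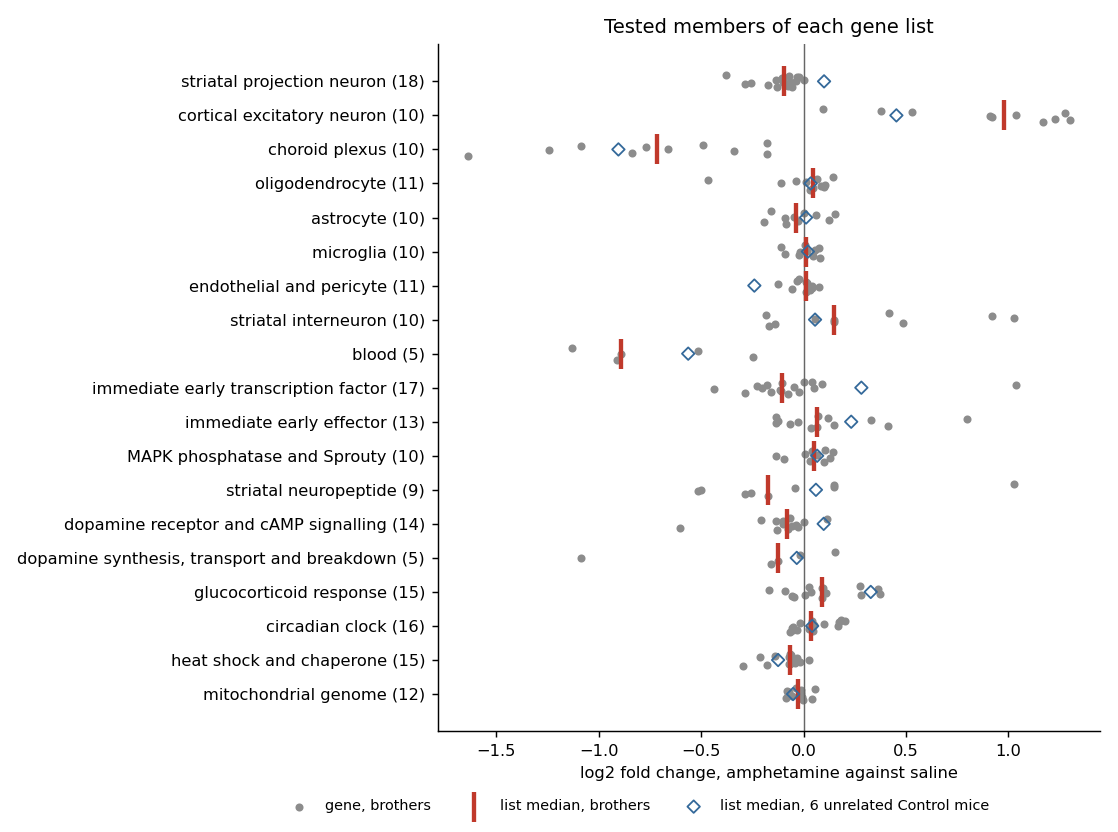
log2 fold change of amphetamine against saline for the tested members of 19 gene lists (number tested in parentheses). Grey points are genes compared between brothers, red bars the list medians, and blue diamonds the medians of the same genes in 6 unrelated Control mice. The cortical list has the highest median (0.98), blood and choroid plexus have the lowest (-0.89 and -0.72), and all others lie between -0.18 and 0.15.

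A set of 6 Control mice outside these families, 3 given amphetamine and 3 given saline and none sharing a parent with another of the 6, gave the same measure in animals that the comparison of brothers did not use. By edgeR's quasi-likelihood test 0 of 14611 genes (0%) were called there and the smallest adjusted p was 0.47. An unadjusted p under 0.05 was found for 1011 genes (6.92%), and DESeq2 called 126. Of the 12 genes higher between brothers 9 were also higher in the unrelated mice and 1, Kif5a, had p under 0.05 there. Of the 12 lower genes 9 were also lower and 2 had p under 0.05, Glt8d1 and 3110039I08Rik. Genes with p under 0.05 in both sets of mice numbered 99, of which 84 had the same sign. The numbers expected if the 2 sets were independent were not computed. The median of the cortical markers was also positive in both sets, 0.98 between brothers and 0.45 in the unrelated mice, where 7 of 10 were higher. The part of cortical RNA in this overlap was not tested.

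Glt8d1 was at 4.46, 4.67 and 4.78 log2 CPM in the 3 unrelated amphetamine mice and at 5.01, 5.29 and 5.32 in the 3 saline mice, with no overlap (-0.57 ± 0.12, adjusted p = 0.66). Kif5a was at 11.37, 11.38 and 11.54 after amphetamine and at 11.06, 11.08 and 11.31 after saline (0.28 ± 0.09, adjusted p = 0.66), where 1 saline mouse lay close to the amphetamine mice. The levels of these 2 genes thus did not overlap in the unrelated mice, in the direction found between brothers, and neither passed the adjustment over all genes. Both were among the genes with p under 0.05 in these same mice, so their separation follows partly from that p. How many of all tested genes separate 3 against 3 mice in this way was not counted. The separation therefore cannot be set against a share over all genes. Cartpt did not separate the unrelated mice. It was at 3.02, 3.34 and 3.43 after amphetamine and at 2.43, 3.44 and 3.95 after saline (-0.13 ± 0.35).

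Some lists differed between the 2 sets of mice and others had the same direction. The median of heat shock and chaperone genes was -0.06 between brothers and -0.12 in the unrelated mice, where 0 of 15 were higher. Of the choroid plexus and blood markers, 0 of 10 and 0 of 5 were higher in either set. In the unrelated mice 14 of 15 glucocorticoid response genes were higher after amphetamine and 7 had p under 0.05, with a median of 0.33. Over all tested genes 49.0% were higher there and, as given above, 6.92% had p under 0.05. Fkbp5 was at 6.18 to 6.53 log2 CPM after amphetamine and 5.93 to 6.06 after saline there (0.33 ± 0.10, adjusted p = 0.66), against -0.05 between brothers. Immediate early transcription factors were higher for 17 of 17 (median 0.28), Fos by 1.09 ± 0.49, with 2 of 3 amphetamine mice above and 1 below all saline mice. Whether these differences between the sets exceed their spread was not tested. The summed cortical markers were 644.5 to 706 CPM in the unrelated amphetamine mice and 303 to 727 CPM in the saline mice.

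Whether the response differed between the lines was examined with an interaction of line and treatment on top of the family block. It rests on 4 High-Active and 2 Control families. A single gene of 14611 (0.00684%) was called, and 176 (1.2%) had p under 0.05. The gene was Gm8172, a processed pseudogene on chromosome X (69605496 to 69606245), with a difference of 8.02 ± 0.74 between lines (adjusted p = 0.0714). The value rests on a single pair. In Control family 340x316 the saline mouse had 1622 reads and its amphetamine brother 4, while in Control family 352x361 the brothers had 1 and 0. In the High-Active line the brothers of 291x360 had 0 and 2 reads and all 7 mice of the other 3 families had 1623 to 2138. Without either brother of 340x316 the value was -3.60 or -3.59 and the gene was not called.

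Other pseudogenes stood high in that ranking and were not called. Rps13-ps1, a pseudogene of a ribosomal protein gene, had 271 reads in the amphetamine mouse of 291x360 and 1 in its brother, 186 to 379 in all 4 Control mice and 0 or 1 in the other 7 High-Active mice. Ndufb4c, a pseudogene, had 374 and 190 reads in the 2 Control saline mice, against 57 and 51 in their amphetamine brothers and 51 to 98 in the High-Active line (interaction 2.09 ± 0.40). Rps13-ps2 had 16 and 0 reads in 340x316 and none in 352x361, and 25 to 59 in the High-Active mice. Reads of processed pseudogenes can belong to their parent genes, and how the counting split them is uncertain.

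The other named genes of this ranking were protein-coding. Chst7, a sulfotransferase on chromosome X, had 58 and 60 reads in the Control saline mice and 23 and 24 in their brothers, and 50 to 121 in the High-Active mice (interaction 1.15). Ndufb4, a subunit of respiratory complex I, had an interaction of -0.66 and Sgsm1, a modulator of small G proteins, of -0.41. Amd2, a copy of the S-adenosylmethionine decarboxylase gene, had 32 to 438 reads in Control and 47 to 1434 in High-Active mice (interaction -2.43, adjusted p = 1.00 by the quasi-likelihood test and 0.000356 by DESeq2, which called no other gene). For Glo1 the interaction was -0.73 ± 0.35. For Cartpt it was 0.35 ± 0.18, with a difference of -0.41 in the High-Active and -0.76 in the Control families alone.

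What the family block removed was measured by testing families within lines. Here 87 genes (0.595%) were called, against none for amphetamine. Of the 87, 58 were protein-coding and 23 pseudogenes, and 6.79% of the 339 tested pseudogenes were called against 0.448% of all other genes. Of the 87, 10 also had p under 0.05 for amphetamine between brothers, as did 928 of all 14611 tested genes (6.35%). Whether the share among the 87 differs from that over all tested genes was not tested. The 6 genes with the smallest p are described next.

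Eno1b, an enolase gene of retrocopy type on chromosome 18 (48045335 to 48048412), had the smallest p (adjusted p = 4.95e-06). It had 19 to 35 reads in the 4 mice of 291x360 and 356x331 and 883 to 2188 in the other 9 mice. Gm5526 had 5 and 7 reads in 327x292 and 298 to 657 elsewhere. Zfp605, a zinc finger gene on chromosome 5, had 3 and 1 reads in Control family 352x361 and 253 to 472 in all other mice. Rpl17-ps5 was the reverse, with 473 to 658 reads in the 3 mice of 273x375 and 9 to 29 elsewhere. Rpl36-ps12 had 112 to 307 reads in 327x292 and 356x331 and 6 to 19 in the other families, and Gm12245 had 0 in both mice of 340x316 and 103 to 186 elsewhere. Each of these 6 genes thus had far fewer reads in some families than in others, in both treatments.

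**Figure D5:**
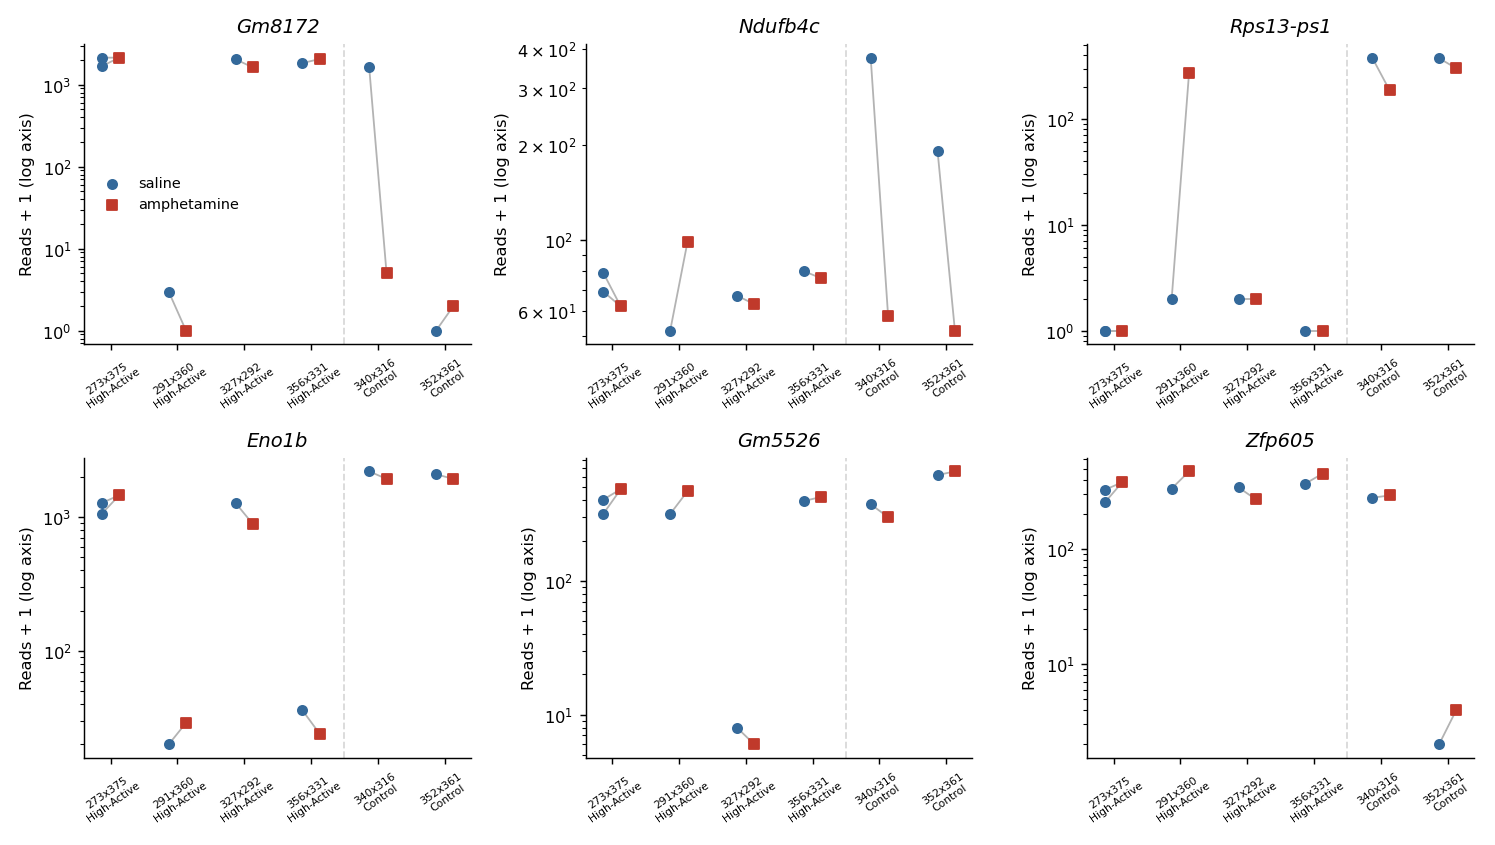
Reads plus 1 (log axes) of 3 genes from the line by treatment ranking (Gm8172, Ndufb4c, Rps13-ps1, upper row) and 3 from the family ranking (Eno1b, Gm5526, Zfp605, lower row) in the 13 mice by family. Circles are saline mice, squares amphetamine mice and grey lines join brothers. In the lower row brothers have like counts and whole families are low, while for Gm8172 the brothers of 340x316 have 1622 and 4 reads.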

How the data were processed

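The authors prepared stranded libraries from total striatal RNA of each mouse, sequenced them as paired reads and aligned them with TopHat2 2.0.10 to GRCm38. Deposited values are raw read counts per gene of Ensembl release 75, made with HTSeq 0.6.1, 1 table per mouse with 39179 genes. The strand setting of the counting is not given in the sources used here. Symbols matched 37607 gene IDs, and locations were taken from GENCODE M21, which uses the same build.

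Counts of the 13 mice were fitted across all genes with edgeR 4.0.16 in R 4.3.3 (quasi-likelihood F test, trimmed mean of M values, family as a block), after a filter of 1 CPM in at least 3 mice, with Benjamini-Hochberg adjustment over 14611 genes. The filter, scaling and threshold follow the study, and the family block does not, since the study fitted none. Line by treatment and family within line were tested in the same way, and the 6 unrelated Control mice without a block over the same genes. Mouse 192, the only High-Active mouse outside the families, entered no contrast here except the fits of all 20 mice. The pairing comes from the sire and dam labels, and the replicate numbers of the labelled groups pair nothing. Distance and single genes were also tested by exact permutation within families with scipy 1.17.1.

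Named genes were the 12 with the smallest p in each direction, 4 in each direction for line by treatment, 6 for family, 2 of each gene list and 12 fixed genes (Fos, Egr1, Arc, Nr4a1, Penk, Pdyn, Tac1, Drd1, Drd2, Fkbp5, Per1, Glo1). Slc17a7, Neurod6, Neurod2, Vip, Nts and Kcne2 were added after their values were seen. Of the 12 lower genes 1 is counted but not reported here. The families, lists and rules were chosen with earlier results of these data known. Each mouse is 1 library. With family as a block, p-values rest mainly on how the difference between brothers varied over the 6 families. In the unrelated mice they measure the spread between mice. The depth of 32388971 to 53710713 reads makes counting error small except for genes near the filter, where 3 reads in the shallowest library equal 0.0926 CPM. The scripts were tested on simulated data. Alternatives were other tools (DESeq2 1.42.0, limma 3.58.1), filters and scalings, no family block, a cortical marker covariate, subsets of families and leaving out each mouse.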

Additional observations from a re-analysis of the deposited data

Results flagged for a closer look

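Of 48 sets of 6 family differences, 5 held a family far from the other five by Dixon's criterion, where chance flags about 1 in 20. For the distance after injection, family 356x331 had a difference of 467.1 and the next family 119.8. For the re-phenotyping distance before injection the same family had 2.03 km/day and the next 0.284 km/day. For Glt8d1 and Cartpt, Control family 352x361 had the lowest log2 differences, -0.40 and -1.07, where the next were -0.24 and -0.50. For the summed astrocyte markers family 291x360 had the lowest log2 ratio, -0.039, where the next was 0.053. The response of Gm8172 differed between the High-Active and Control families by 8.02 (edgeR interaction, adjusted p = 0.0714), through the brothers of 340x316 alone.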

How the results depend on the processing

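The family block rests on the shared parents. Without the replicate block the count for amphetamine stayed at 0 called genes, with 917 at p under 0.05. The line by amphetamine call of Gm8172 was lost. Of the 13 mice, DESeq2 called 16 genes, the likelihood-ratio test with robust dispersions 17, and limma-voom on all 20 mice with family as a random block 4. The count at p under 0.05 was 522 with the cortical covariate, 378 without family 273x375 (chosen after seeing the data), 321 in the 3 pairs born on the same date, 533 in the High-Active and 344 in the Control families, 1817 in all 20 mice without a block, 1935 in those with the random block, and 478 to 1320 leaving out each mouse. For line by amphetamine 0 genes were called without the block, by limma-voom, with the covariate and without 273x375, 8 by the likelihood-ratio test, and 0 to 2 leaving out each mouse. For family within line 162 were called with no filter, 610 by DESeq2, 508 by the likelihood-ratio test, 31 without 273x375, and 45 to 119 leaving out each mouse. For the unrelated mice DESeq2 called 126 and leaving out each mouse 0 to 16. The cause of these shifts was not tested. The distance difference was 33.4 to 126.7 leaving out each mouse.

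None of the 12 higher and 12 lower genes changed direction under any alternative. They were picked by the smallest p in these same mice, so a stable direction follows largely from that choice. In the unrelated mice 3 of the 12 higher and 3 of the 12 lower genes had the opposite sign. Some of the other named genes changed direction under the alternatives. In all 20 mice (no block, then random block) the log2 fold change was 0.27 and 0.225 for Fos, 0.0097 and 0.0070 for Egr1, 0.062 and 0.037 for Nr4a1, 0.047 and 0.037 for Fkbp5, 0.16 and 0.19 for Glo1, and -0.024 and -0.0055 for Tek. Arc was -0.028 without the replicate block, -0.15 with the covariate, -0.0024 without 273x375, -0.18 in the same-date pairs and -0.12 in the Control families. In the Control families Penk was 0.032, Drd2 0.0265, Glo1 0.47, C1qa 0.10 and Tek -0.11. In the same-date pairs Fkbp5 was 0.00065, Per1 0.031, Mal 0.014, C1qa 0.038 and Spry4 -0.0085. With the covariate Fkbp5 was 0.0069. Slc17a7 was -0.042 with it, but this gene is part of the cortical marker score, so its shift was fixed in advance. Leaving out each mouse gave -0.22 to 0.089 for Fos, -0.26 to 0.00013 for Egr1, -0.12 to 0.24 for Arc, -0.20 to 0.027 for Drd2, -0.11 to 0.053 for Per1, -0.23 to 0.081 for Glo1 and -3.60 to 8.42 for the line by amphetamine value of Gm8172. The fit had 6 residual degrees of freedom and a median standard error of 0.081.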

Other observations

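Some genes were present in a mouse and all but absent in its brother. With 1 CPM or more on 1 side and under 0.1 CPM on the other, a rule set after seeing the data, 58 genes met it in at least 1 family, 24 of them pseudogenes, in 84 combinations of gene and family. Pseudogenes made up 2.32% of the 14611 genes tested for amphetamine. The share of all screened genes that meet the rule was not computed. The level was on the amphetamine side in 48 and on the saline side in 36. By family the numbers were 24 in 291x360, 18 in 352x361, 14 in 327x292, 11 in 356x331, 9 in 340x316 and 8 in 273x375. The pseudogene Rps2-ps13 had 4370 reads in the amphetamine mouse of 291x360 and 2 in its brother, and the reverse order in 356x331 (3 and 2703) and in 352x361 (2 and 594). The protein-coding gene Fam213b had 489 and 0 reads in 352x361 and 1063 and 0 in 327x292, higher on the amphetamine side both times.

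A further group of such genes marks neighbouring brain regions. In 291x360 the amphetamine mouse had 807 reads of Shox2, a factor of the thalamus, 132 of Sim1 and 561 of Oxt, both hypothalamic, and 381 of Mfrp and 200 of Kcne2, both of choroid plexus. Its brother had 3, 0, 2, 1 and 2. In 340x316 the amphetamine mouse had 159 reads of Oxt and its brother 2. In 327x292 the brothers had 579 and 2 reads of Shox2, and in 356x331 the saline mouse had the higher count of Mfrp (115 against 2) and Kcne2 (86 against 3). Tissue from these regions was not tested as a source of other differences.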
